A study of Mus musculus with 6 samples.

Results

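The genes described here are 35 genes that mark red pulp macrophages and monocytes of the mouse spleen, listed by name and followed in RNA of purified splenic B cells. For each gene the brightest probe set that names that gene alone was taken, which gave values for 34 of the 35 genes, among 19935 genes measured. Ly6c2 was not analysed here, because the probe sets that name it also name Ly6c1. The arrays came from CD43- B220+ splenic B cells of WT mice (n = 3) and CD37KO mice (n = 3), with 1 array per mouse. The mice were C57BL/6J, given as 3 months old in the labels and as older in the methods. The control mice were wild-type littermates and the knockouts were Cd37 -/-. No promoter, Cre or cell type that would limit the deletion is named in the sources used here. B cells were purified by removing CD43-bearing cells, and B220 staining served to assess purity, which was not always complete, so other cells could remain. CD37 is a tetraspanin, a membrane protein that organises receptors on B cells. The comparison made here asks how macrophage and monocyte transcripts in these isolates differed between genotypes and between arrays.

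Red pulp macrophages engulf aged red blood cells in the spleen, break down heme and return iron to the blood. They depend on the transcription factor SpiC and on signals through the CSF1 receptor, and they carry VCAM1 on their surface. Monocytes are circulating precursors of many macrophages and also form a reserve in the spleen. In bulk RNA such as this, fewer cells of a type and less RNA per cell cannot be told apart.

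Values are log2 expression levels. A level was taken as above background when it exceeded 5.76, the 95th percentile of the mean levels of 1027 olfactory receptor genes. Levels of different genes come from different probe sets and are not compared with each other. Cd37 checked the labels, at 11.99, 11.82 and 12.08 in the WT arrays and at 8.15, 8.17 and 8.17 in the CD37KO arrays (log2 difference -3.80, adjusted p = 1.37e-07 from limma). All 16 measured B cell marker genes were above background in each array, and their mean level ran from 11.54 to 11.62 across the 6 arrays.

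Macrophage transcripts were measured above background in these isolates, they differed widely between mice of a genotype, and none passed the test between genotypes. Of the 34 genes, 29 were above background in all 6 arrays, 3 in some arrays and 2 in none. In 29 of the 34 genes the 3 highest arrays were WT replicate 1, CD37KO replicate 1 and CD37KO replicate 3, an order that 6.16% of all genes showed. Among genes above background in every array, 27 of 29 members had it, against 9.88% of all such genes. The order was picked as the most frequent among the members, so these counts describe the members and are no test. WT replicate 1 was the highest WT array for 31 members, and CD37KO replicate 2 was the lowest CD37KO array for 30.

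**Figure D1:**
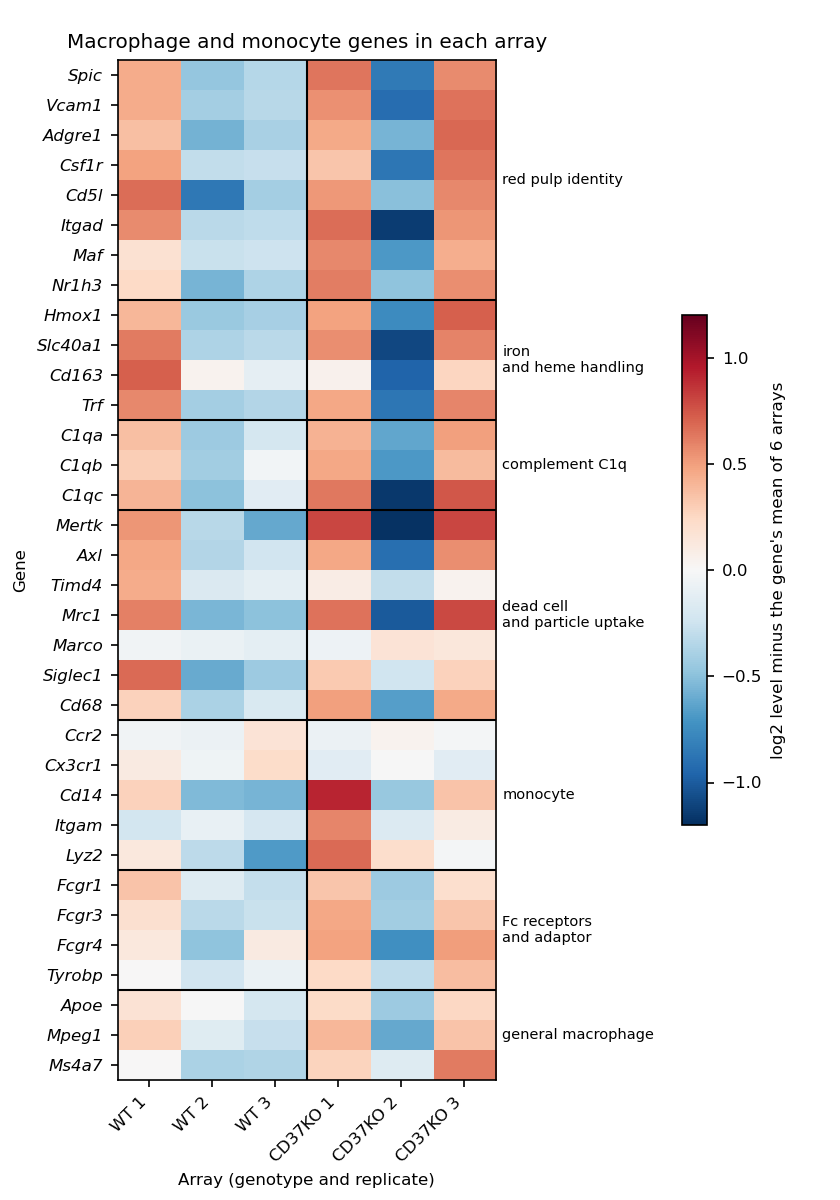
Heat map of 34 macrophage and monocyte genes (rows, by functional group) in the 6 arrays (columns, genotype and replicate). Colour gives the log2 level minus the mean of that gene over the 6 arrays. In 29 rows the 3 highest arrays are WT 1, CD37KO 1 and CD37KO 3, while Marco, Ccr2 and Cx3cr1 are pale in all 6.

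All 8 genes of red pulp identity had this order. Spic, the transcription factor that red pulp macrophages need to form, was at 9.19, 8.28 and 8.40 in WT replicates 1 to 3 and at 9.38, 7.89 and 9.31 in CD37KO replicates 1 to 3. Its highest and its lowest array were both CD37KO, with 2.81-fold more signal in the highest. Vcam1, an adhesion molecule on these macrophages, was at 10.83, 9.97 and 10.05 in WT and at 10.93, 9.47 and 11.03 in CD37KO arrays. Adgre1, an adhesion receptor that marks mouse macrophages, was at 10.10, 9.17 and 9.35 in WT and at 10.19, 9.18 and 10.42 in CD37KO arrays. Csf1r, the receptor for the growth factor CSF1, was at 10.34, 9.56 and 9.58 in WT and at 10.19, 8.99 and 10.50 in CD37KO arrays. In each of these genes WT replicate 1 lay with CD37KO replicates 1 and 3, and the ranges of the genotypes overlapped.

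Cd5l, a secreted scavenger receptor protein of tissue macrophages, was at 9.68, 8.15 and 8.60 in WT and at 9.53, 8.51 and 9.59 in CD37KO arrays. It spread most among the WT mice, by 1.53 on the log2 scale. Itgad, the integrin subunit CD11d, was at 9.11, 8.22 and 8.24 in WT and at 9.21, 7.40 and 9.07 in CD37KO arrays. A second, dimmer probe set of Itgad stayed between 5.71 and 6.10 in the 6 arrays, near background, and did not show the order. Maf, a transcription factor of mature macrophages, was at 8.59, 8.14 and 8.16 in WT and at 8.98, 7.72 and 8.84 in CD37KO arrays. Nr1h3, the sterol-sensing receptor LXR alpha, was at 7.43, 6.63 and 6.82 in WT and at 7.80, 6.71 and 7.75 in CD37KO arrays. None of these 8 genes passed the test between genotypes, with log2 differences of 0.04 to 0.46 (adjusted p 0.809 to 0.988 from limma).

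The genes of iron and heme handling had the order in 4 of 4 cases, narrowly so for Cd163. Hmox1, the enzyme that opens the heme ring, was at 10.77, 9.93 and 9.98 in WT and at 10.86, 9.62 and 11.09 in CD37KO arrays. Slc40a1, the iron exporter ferroportin, was at 11.06, 10.07 and 10.12 in WT and at 11.00, 9.35 and 11.04 in CD37KO arrays. Trf, the iron carrier transferrin, was at 10.71, 9.72 and 9.78 in WT and at 10.60, 9.26 and 10.72 in CD37KO arrays. For these 3 genes the level in WT replicate 1 was nearer to those in CD37KO replicates 1 and 3 than to that in any other array. Cd163, the receptor for haemoglobin bound to haptoglobin, was at 7.11, 6.44 and 6.29 in WT and at 6.45, 5.44 and 6.65 in CD37KO arrays. Its place in the order rested on a near tie, 6.45 in CD37KO replicate 1 against 6.44 in WT replicate 2. Its log2 difference of -0.44 was the lowest of the 34 members, with a 95% interval from -1.16 to 0.29 (adjusted p = 0.814 from limma), and in CD37KO replicate 2 it was below background. That difference was -0.068 without CD37KO replicate 2, -0.19 without WT replicate 1 and -0.67 without CD37KO replicate 3. The log2 difference was 0.30 for Hmox1, 0.04 for Slc40a1 and 0.12 for Trf, all with intervals that include 0, and for Hmox1 it ran from 0.018 to 0.75 on leaving out single arrays.

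**Figure D2:**
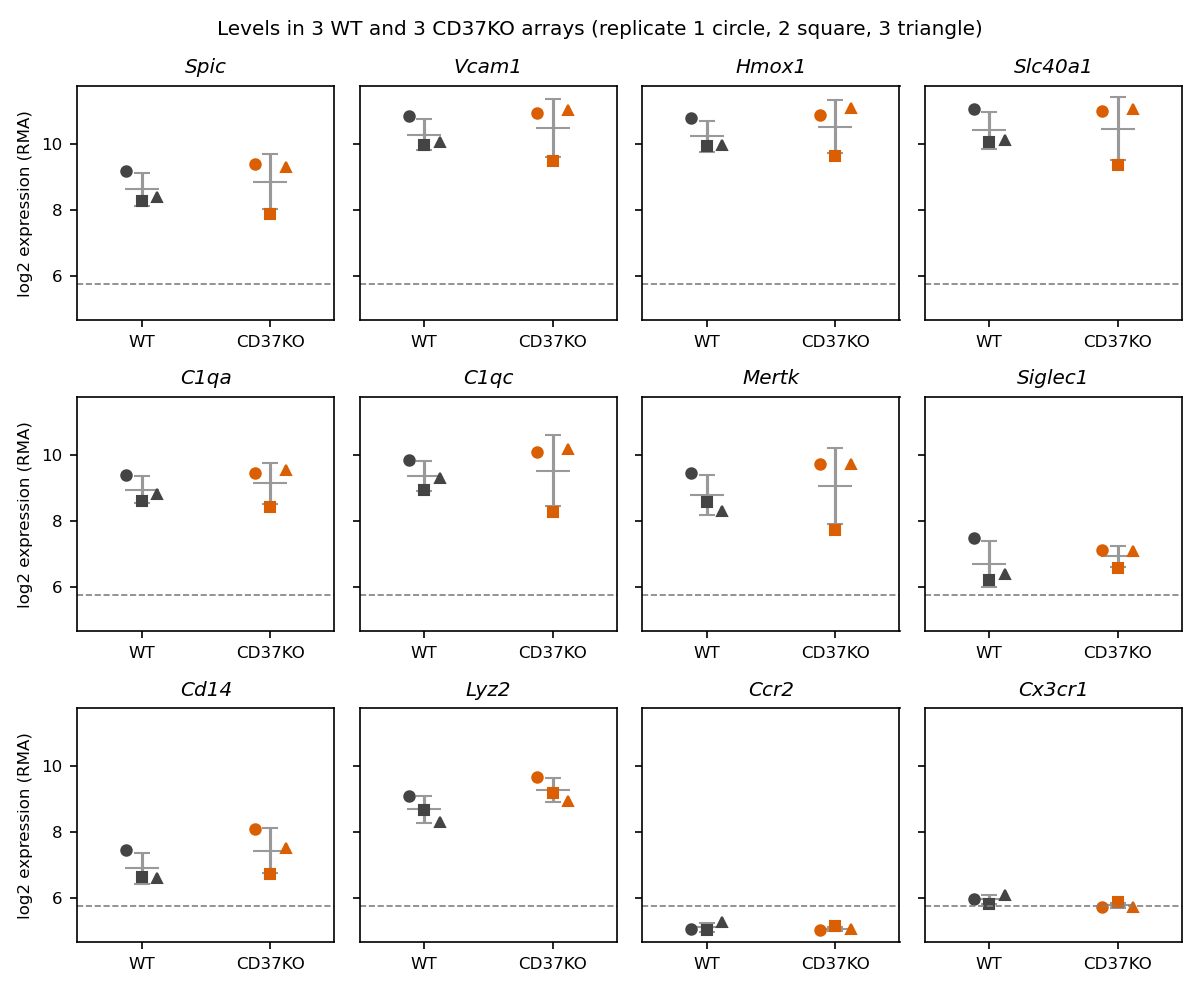
Log2 expression of 12 members in 3 WT (grey) and 3 CD37KO (orange) arrays. Symbols mark the replicate number, bars give mean ± SD (n = 3) and a dashed line shows background, 5.76. In the upper 9 panels, from Spic to Cd14, WT replicate 1 (circle) lies with CD37KO replicates 1 and 3 (circle and triangle), and CD37KO replicate 2 (square) lies lower, while Lyz2, Ccr2 and Cx3cr1 do not have this order.

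C1q is the recognition part of the classical complement pathway and is assembled from the products of C1qa, C1qb and C1qc, which macrophages make. C1qa was at 9.40, 8.61 and 8.83 in WT and at 9.46, 8.42 and 9.54 in CD37KO arrays. C1qb was at 9.66, 8.95 and 9.33 in WT and at 9.83, 8.68 and 9.75 in CD37KO arrays. C1qc was at 9.85, 8.95 and 9.31 in WT and at 10.08, 8.29 and 10.19 in CD37KO arrays. All 3 chains shared the order, and all were lowest in CD37KO replicate 2. The span from the lowest to the highest array was 1.12 for C1qa, 1.15 for C1qb and 1.89 for C1qc on the log2 scale, while the log2 differences between genotypes were 0.19, 0.11 and 0.15 (adjusted p 0.902 to 0.954 from limma).

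Promoters are shown for members of the red pulp identity and C1q groups that hold the letters GAGGAA, the core of sites bound by the ETS factors PU.1 and SpiC. Each is the 250 bases before the start of the gene, from RefSeq on GRCm38.p6, printed along the strand of the gene. Capitals mark GAGGAA or, where it lies on the other strand, TTCCTC.
Cd5l, chr3:87357631-87357880, plus strand: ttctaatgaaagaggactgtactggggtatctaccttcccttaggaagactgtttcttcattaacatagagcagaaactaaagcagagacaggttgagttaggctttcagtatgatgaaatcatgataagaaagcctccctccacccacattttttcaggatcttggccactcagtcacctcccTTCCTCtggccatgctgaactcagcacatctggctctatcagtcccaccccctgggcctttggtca
C1qb, chr4:136886201-136886450, minus strand: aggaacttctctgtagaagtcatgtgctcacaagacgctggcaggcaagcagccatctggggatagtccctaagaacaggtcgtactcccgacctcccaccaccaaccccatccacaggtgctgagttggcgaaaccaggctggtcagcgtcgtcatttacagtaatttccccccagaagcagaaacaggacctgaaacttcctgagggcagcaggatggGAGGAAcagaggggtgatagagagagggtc
C1qc, chr4:136892915-136893164, minus strand: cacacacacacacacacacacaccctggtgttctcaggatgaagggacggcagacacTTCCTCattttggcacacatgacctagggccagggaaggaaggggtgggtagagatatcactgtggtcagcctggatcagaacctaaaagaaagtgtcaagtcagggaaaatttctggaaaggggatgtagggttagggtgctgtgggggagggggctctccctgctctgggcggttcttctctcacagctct
The match began 66 bases before the start of Cd5l, 30 before C1qb and 193 before C1qc. Of the 35 members, 23 had a promoter in the table used here, and 13 of these 23 (56.5%) held GAGGAA on either strand, against 25.9% of 27025 genes. TTGCNNAA, letters found in C/EBP sites, was in 2 of 23 members and in 10.8% of genes. TGANNNNGC, letters of the antioxidant response element, was in 7 of 23 members (30.4%) and in 38.7% of genes. These matches are a description of the letters and not of bound sites, and the arrays do not measure binding.

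The genes for uptake of dead cells and particles had the order in 6 of 7 cases. Mertk, a receptor tyrosine kinase for apoptotic cells, was at 9.46, 8.59 and 8.31 in WT and at 9.73, 7.74 and 9.73 in CD37KO arrays. This was the widest span of any member, 2.00 on the log2 scale or 3.99-fold, and all of it lay within the CD37KO mice. Its relative Axl was at 10.25, 9.43 and 9.55 in WT and at 10.25, 8.88 and 10.34 in CD37KO arrays. Mrc1, the mannose receptor, was at 10.01, 8.86 and 8.92 in WT and at 10.06, 8.40 and 10.20 in CD37KO arrays. Cd68, a lysosomal membrane protein of macrophages, was at 10.47, 9.81 and 10.01 in WT and at 10.68, 9.53 and 10.65 in CD37KO arrays.

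Siglec1 and Timd4 had the order with WT replicate 1 as the highest array. Siglec1, the sialic acid receptor of marginal metallophilic macrophages, was at 7.50, 6.22 and 6.39 in WT and at 7.14, 6.58 and 7.10 in CD37KO arrays. Timd4, a phosphatidylserine receptor of resident macrophages, was at 7.78, 7.16 and 7.22 in WT and at 7.42, 7.04 and 7.38 in CD37KO arrays. Marco, a scavenger receptor of marginal zone macrophages, was at or below background, between 5.48 and 5.76 in the 6 arrays. No gene of this group passed the test (adjusted p 0.801 to 0.974 from limma), and the log2 differences ran from -0.11 for Timd4 to 0.29 for Mrc1.

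The monocyte genes had the order in 1 of 5 cases, although the mean of these 5 genes had it. Ccr2, the chemokine receptor that defines inflammatory monocytes, was below background in every array, between 5.03 and 5.27. Cx3cr1, the fractalkine receptor of patrolling monocytes, was at 5.99, 5.83 and 6.10 in WT and at 5.75, 5.88 and 5.75 in CD37KO arrays, above background in 4 arrays. So neither of these 2 receptors was clear of background in all arrays, and the other monocyte members are also expressed by macrophages or neutrophils. Of 15 other monocyte genes measured outside the members, 9 were above background in all 6 arrays and 4 had the order. Cd300e, a gene of that list named after its values had been seen, was at 8.42, 7.83 and 8.02 in WT and at 8.51, 7.05 and 8.75 in CD37KO arrays. Cd14, the lipopolysaccharide co-receptor, was at 7.45, 6.64 and 6.62 in WT and at 8.09, 6.72 and 7.52 in CD37KO arrays, with the order of the red pulp genes.

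Itgam and Lyz2 departed from that order. Itgam, the integrin subunit CD11b of monocytes and neutrophils, was at 6.04, 6.18 and 6.06 in WT and at 6.85, 6.10 and 6.36 in CD37KO arrays. Lyz2, the lysozyme of macrophages and neutrophils, was at 9.10, 8.66 and 8.30 in WT and at 9.66, 9.19 and 8.95 in CD37KO arrays, so that WT replicate 1 lay inside the CD37KO range. Both were highest in CD37KO replicate 1, as was the mean of 16 neutrophil marker genes, at 6.08, 5.90 and 6.11 in WT and 7.56, 6.35 and 6.93 in CD37KO arrays. Of those 16 neutrophil genes 6 were above background in all arrays. At an unadjusted p under 0.05 from limma, 12 of the 16 were higher in CD37KO, against 2.96% of all genes, and none passed after adjustment. The smallest adjusted p among them was 0.258 for Ngp, a neutrophil granule protein (limma). The part of neutrophil RNA in the levels of Itgam and Lyz2 was not tested.

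Tyrobp, the adaptor DAP12 that passes on signals of several myeloid receptors, and the activating Fc receptors had the order in 4 of 4 cases. Fcgr1 was at 6.42, 5.93 and 5.80 in WT and at 6.41, 5.65 and 6.28 in CD37KO arrays, and was below background in CD37KO replicate 2. Fcgr3 was at 7.66, 7.14 and 7.20 in WT and at 7.93, 7.05 and 7.80 in CD37KO arrays. Fcgr4 was at 7.11, 6.50 and 7.09 in WT and at 7.47, 6.25 and 7.49 in CD37KO arrays. WT replicates 1 and 3 were close together for Fcgr4, unlike for the red pulp genes. Tyrobp was at 9.21, 8.97 and 9.12 in WT and at 9.44, 8.90 and 9.57 in CD37KO arrays, a span of 0.67 on the log2 scale and the narrowest of the 29 members with the order.

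The 3 general macrophage genes also had the order. Apoe, a lipid carrier, was at 10.81, 10.63 and 10.42 in WT and at 10.86, 10.20 and 10.88 in CD37KO arrays. Mpeg1, the pore protein perforin-2, was at 10.47, 10.04 and 9.91 in WT and at 10.58, 9.57 and 10.53 in CD37KO arrays. Ms4a7, a membrane protein of macrophages, was at 6.98, 6.59 and 6.61 in WT and at 7.24, 6.82 and 7.60 in CD37KO arrays. For Ms4a7 only WT replicate 1 reached into the CD37KO range.

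Between genotypes, none of the 34 members passed an adjusted p of 0.05 (adjusted p 0.801 to 0.988 from limma), and 0.0552% of all genes did. At an unadjusted p under 0.05, 2 members were higher in CD37KO, against 2.96% of all genes, and 0 were lower, against 2.99%. These were Ms4a7, with a log2 difference of 0.49 (95% interval 0.06 to 0.92, adjusted p = 0.801 from limma), and Lyz2, with 0.58 (0.06 to 1.09, adjusted p = 0.801 from limma). The WT and CD37KO arrays overlapped in all 34 members, so 0 were without overlap, against 11.9% of all genes. The difference was above 0 for 30 members and below 0 for 4, against 41.8% of all genes above 0. The median difference was 0.19, beside -0.02 over all genes. It was -0.019 without CD37KO replicate 1, -0.025 without CD37KO replicate 3, 0.037 without WT replicate 2, 0.12 without WT replicate 3, 0.37 without WT replicate 1 and 0.57 without CD37KO replicate 2, so its sign and size hung on single arrays.

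**Figure D3:**
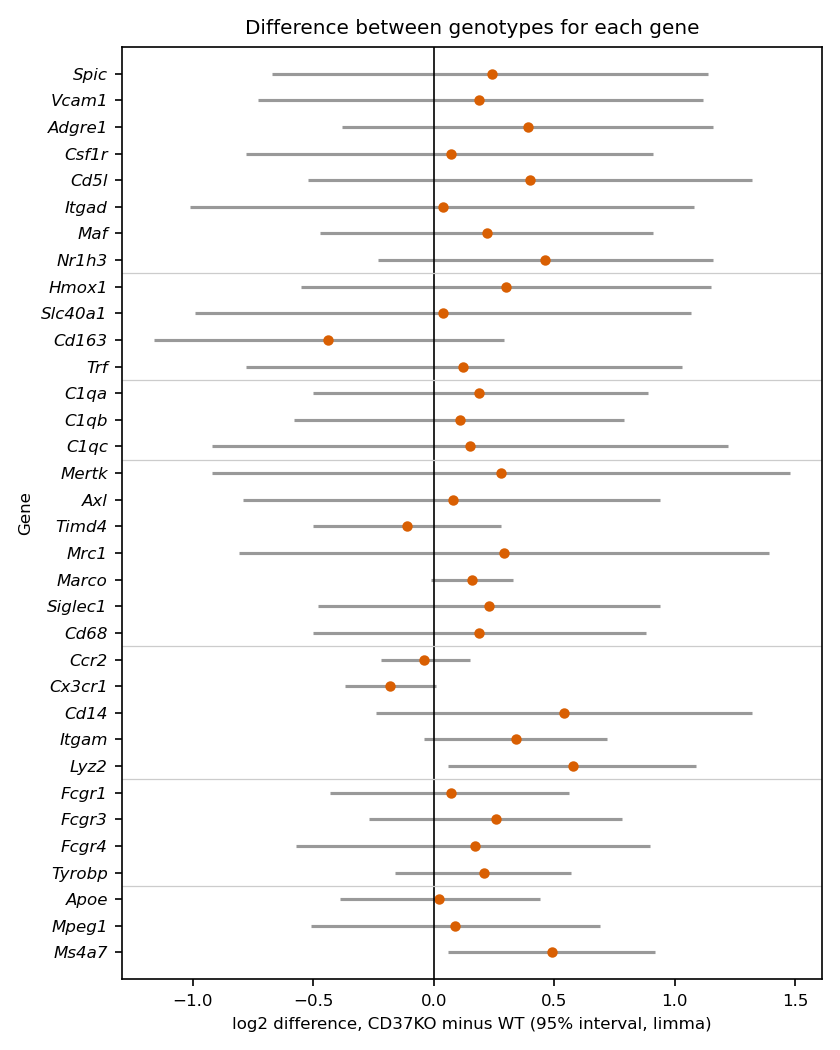
Log2 difference between genotypes, CD37KO minus WT, for the 34 members (points) with the 95% interval from limma (lines), n = 3 arrays per genotype. The intervals of Lyz2 and Ms4a7 lie above 0 and the other 32 include 0.

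Each of the 6 arrays moved these counts, and CD37KO replicate 2 moved them furthest. Without it, 22 members were higher in CD37KO and 1 was lower at an unadjusted p under 0.05, where 6.48% and 6.26% of all genes were, and still none passed after adjustment. Without WT replicate 1, 5 were higher, where 2.23% of all genes were. Without WT replicate 2 none was higher and Cx3cr1 was lower, where 3.71% and 5.01% of all genes were. Without WT replicate 3 none was higher or lower, where 2.66% and 1.69% of all genes were. So Ms4a7 and Lyz2 both fell short of this line when WT replicate 2 or WT replicate 3 was left out. Without CD37KO replicate 1 the 1 higher member was Marco, which is not above background, where 1.91% of all genes were higher. Without CD37KO replicate 3 the 1 higher member was Lyz2, where 1.52% of all genes were higher. In these 2 fits 14 and 15 members, in that order, had a difference above 0. Over all alternatives 22 of the 34 members changed the sign of their difference at least once. The interval of a member was wide, up to 1.2 on either side of the difference, so a sizeable genotype difference in either direction was not detectable for genes such as Mertk.

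The spread within a genotype was large for nearly all members. The standard deviation left after fitting genotype had a median of 0.53 on the log2 scale over the 34 members and of 0.093 over all genes. It was above the 95th percentile of all genes, 0.227, for 31 members, a line that 5.0% of all genes pass by construction. The larger of the ranges within WT and within CD37KO exceeded the difference between the genotypes in 34 of 34 members, but also in 94.2% of all genes, so this count says nothing particular to the members. The 3 below the line were Marco, Ccr2 and Cx3cr1, which were at or near background. Cd163 and Fcgr1, below background in CD37KO replicate 2 only, were above the line at 0.55 and 0.37. These comparisons were made after the data had been seen and have no test.

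**Figure D4:**
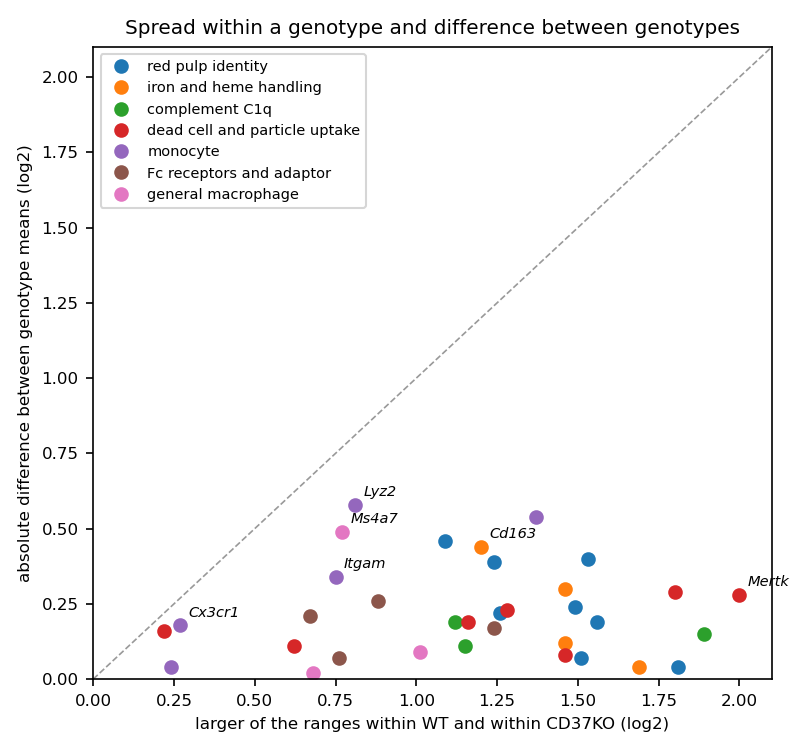
For each of the 34 members, the larger of the ranges within WT and within CD37KO (x axis, log2) and the absolute difference between genotype means (y axis, log2), coloured by group. The dashed line marks equality, and all 34 points lie below it, as 94.2% of all genes would, with Mertk farthest to the right at a range of 2.00.

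By group, the mean level of the red pulp identity genes was 9.41, 8.51 and 8.65 in WT and 9.53, 8.23 and 9.56 in CD37KO arrays. The iron and heme group ran from 8.42 in CD37KO replicate 2 to 9.91 in WT replicate 1, a span of 1.49. The C1q group spanned 1.36, the uptake group 1.03, the Fc receptor group 0.85 and the general macrophage group 0.80. The monocyte group spanned 0.61 with Ccr2 and Cx3cr1, which were not above background in every array. Over Cd14, Itgam and Lyz2 alone, counted after the data had been seen, it spanned 1.21, with means of 7.53, 7.16 and 6.99 in WT and 8.20, 7.34 and 7.61 in CD37KO arrays. Over these 3 genes the monocyte group was lowest in WT replicate 3, and over all 5 genes WT replicates 2 and 3 were level at 6.47. The other groups were lowest in CD37KO replicate 2. The highest arrays of the monocyte group were CD37KO replicates 1 and 3 and WT replicate 1 either way, as in the other groups. Over genes above background in every array the uptake group, without Marco, spanned 1.22 and the iron group, without Cd163, 1.53. Whether the groups differ in these spans was not tested.

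Other genes of the same pathways were looked at through fixed lists of 99 genes, of which 91 were measured and 62 were above background in all arrays. In CD37KO arrays 8 of the 91 were higher and 0 lower before adjustment (p under 0.05), beside 2.96% and 2.99% of all genes, and none passed after adjustment. Among them 34 of 91 (37.4%) had the order of the members. Other macrophage genes had it in 15 of 27 cases, other iron and heme genes in 7 of 21, other complement genes in 4 of 14, other monocyte genes in 4 of 15 and myeloid transcription factors in 4 of 14.

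Treml4, a receptor of splenic macrophages placed here in the list of other monocyte genes, was at 9.53, 8.57 and 8.81 in WT and at 9.55, 8.27 and 9.71 in CD37KO arrays. Clec4n, the C-type lectin dectin-2, was at 8.03, 7.18 and 7.14 in WT and at 8.55, 6.78 and 8.80 in CD37KO arrays. Lrp1, a receptor that takes up heme bound to hemopexin, was at 8.66, 8.07 and 7.63 in WT and at 8.97, 7.25 and 9.21 in CD37KO arrays. These 3 genes were named after their values had been seen, and Clec4n and Lrp1 had the widest spans of their lists. The 3 genes spanned 1.43 to 2.01 across the arrays, beside 1.17 to 1.81 for the red pulp identity genes. The means of their whole lists spanned less, 0.41 for other monocyte, 0.55 for other macrophage and 0.26 for other iron and heme genes. The mean of the red pulp identity genes spanned 1.33. By the smallest p, the genes of the lists included Blvrb, a biliverdin reductase of the heme pathway (log2 difference 0.25, adjusted p = 0.801 from limma), and Lilrb4a, an inhibitory receptor of myeloid cells (0.52, adjusted p = 0.801 from limma). Both were higher in all 3 CD37KO arrays than in any WT array, but they were picked by their small p. Of the 91 measured genes of these lists, 9 were without overlap in either direction, against 11.9% of all genes. Pglyrp1, a peptidoglycan recognition protein abundant in neutrophils, was at 8.29, 8.04 and 8.42 in WT and at 8.94, 8.48 and 8.57 in CD37KO arrays. Chil3, a chitinase-like protein of monocytes and neutrophils, was above background only in CD37KO replicate 1, at 6.11.

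Marker lists of the other cells that a spleen isolate could hold were read beside the members. Above background in all arrays were 3 of 12 T cell, 6 of 12 dendritic cell and 5 of 9 NK cell genes. The same held for 4 of 8 erythroid and 5 of 14 stromal and endothelial genes. The means of these lists therefore hold much signal near background, which RMA draws together, and a flat mean says little about those cells. Erythroid markers had the members' order in their mean, at 6.26, 5.91 and 6.08 in WT and at 6.40, 5.95 and 6.38 in CD37KO arrays, with 3 of 8 genes showing it singly. Car1, an erythroid carbonic anhydrase named after its values had been seen, was at 7.16, 6.08 and 6.13 in WT and at 7.48, 5.83 and 7.63 in CD37KO arrays. The T cell and dendritic cell means moved by 0.13 or less between arrays. NK cell markers were highest in WT replicate 3, at 6.26 against 5.80 to 5.96 in the other arrays. Stromal and endothelial markers were at 6.21, 6.08 and 6.12 in WT and at 5.97, 6.01 and 5.95 in CD37KO arrays. The mean over all 34 members was 8.74, 8.07 and 8.15 in WT and 8.84, 7.83 and 8.83 in CD37KO arrays, an order that the B cell, T cell and NK cell means did not share. The part of macrophages carried over with the B cells in the members' levels was not tested.

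**Figure D5:**
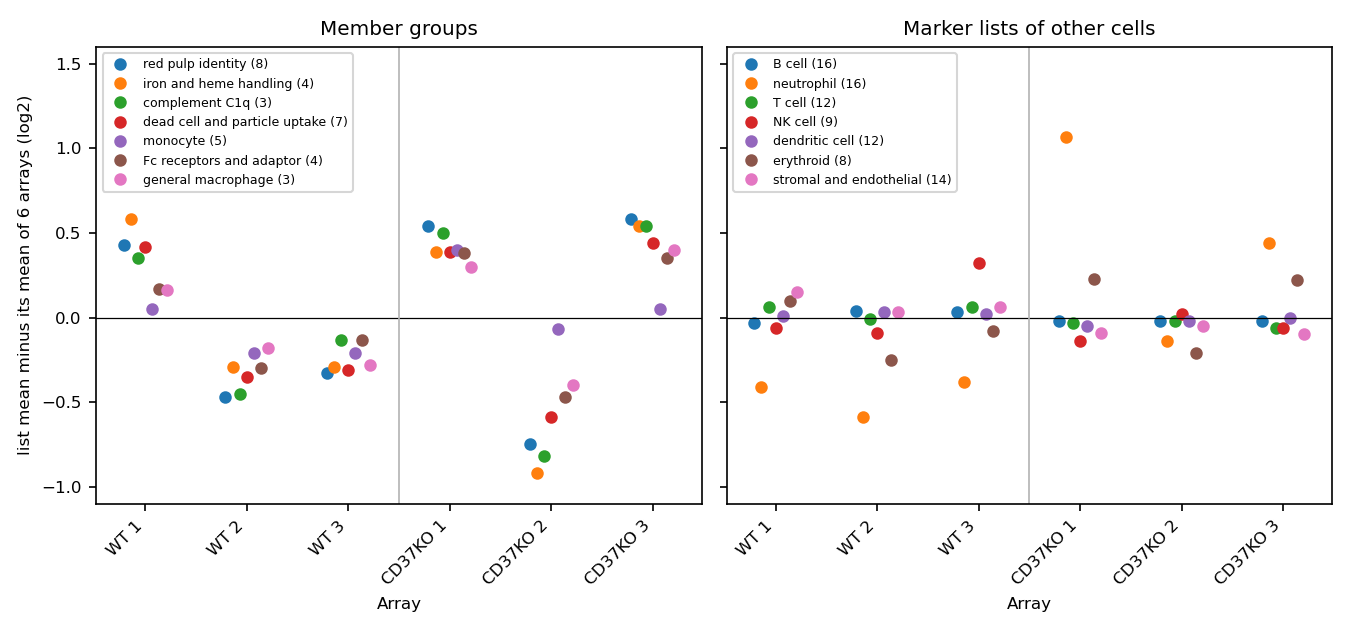
Mean log2 level of each member group (left) and of each marker list of other cells (right) in the 6 arrays, minus the mean of that list over the arrays, with the number of genes in brackets. The 3 highest arrays of each member group are WT 1, CD37KO 1 and CD37KO 3. The monocyte group is at 0.40 in CD37KO 1 and at 0.05 in WT 1 and CD37KO 3. Erythroid markers have the same 3 highest arrays in a smaller range, neutrophil markers are highest in CD37KO 1 and B cell markers stay near 0.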

How the data were processed

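RNA of CD43- B220+ splenic B cells, from WT mice (n = 3) and CD37KO mice (n = 3), was hybridised to Affymetrix arrays. The authors deposited log2 values per probe set, and the submitters' processing notes name RMA and the build mm8. RMA corrects background, normalizes between arrays and draws low signals together. The raw scans were not used here, and no scan or hybridisation batch is given in the labels. Of 35361 probe sets, 21780 named a single gene. The brightest per gene was kept (19935 genes) and symbols were updated through Entrez IDs. Genotypes were compared by limma's moderated two-sided test (version 3.58.1, R 4.3.3), with Benjamini-Hochberg adjustment across the genes, after a trial on simulated data. With 3 arrays a side, the smallest p of an exact test is 0.1. The number of arrays limits the precision.

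The members and lists were chosen with earlier results of these data known. All members are named, with up to 3 genes of smallest p per list. Genes named outside this rule are marked in the text. Alternatives were other scalings, probe set means, a background filter, other variance models, array weights, a replicate block and leaving out each array. Promoters came from RefSeq (GRCm38.p6), and 12 members had no entry in the table used here. The C1q proteins were not compared here.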

Additional observations from a re-analysis of the deposited data

How the results depend on the processing

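No member passed an adjusted p of 0.05 from limma under any of the 14 alternatives. The number of members higher in CD37KO at an unadjusted p under 0.05 was 2 as reported, where 2.96% of all genes were. It was 1 with trend and robust eBayes (2.59% of all genes), 0 with ordinary least squares (2.12%) and 4 with the replicate block (3.22%). On leaving out single arrays it was between 0 and 22, where 1.52% to 6.48% of all genes were. The number lower was 0 as reported (2.99% of all genes), 1 with array weights (10.2%) and 0 to 1 on leaving out single arrays (1.37% to 6.26%). CD37KO replicate 2 gave the 22. The median difference of the members was 0.042 with array weights and ran from -0.025 to 0.57 on leaving out single arrays. Same-numbered arrays did not deviate together in every pair (r = 0.2887, 0.0886 and -0.1338 for replicates 1, 2 and 3). These correlations were taken after centring within each genotype and cannot show whether mice were paired. The labels give replicate numbers only, so the replicate block is an alternative fit and not a known pairing. The number of members above background in all 6 arrays was 29, 32 at the 90th and 26 at the 99th percentile. The order of arrays held for 28 or 29 members under other scalings. Of 34 members, 12 kept their sign under each alternative and 22 did not. With 1 array left out at a time, the log2 difference ran from -0.024 to 0.72 for Spic, -0.082 to 0.70 for Vcam1, -0.24 to 0.52 for Csf1r, -0.29 to 0.61 for Itgad and -0.015 to 0.62 for Maf. It ran from -0.24 to 0.60 for Slc40a1, -0.14 to 0.59 for Trf, -0.003 to 0.55 for C1qa, -0.098 to 0.47 for C1qb and -0.18 to 0.76 for C1qc. The range was -0.055 to 0.94 for Mertk, -0.18 to 0.55 for Axl, -0.22 to 0.087 for Timd4, -0.035 to 0.86 for Mrc1 and -0.006 to 0.63 for Siglec1. It was from -0.009 to 0.57 for Cd68, -0.080 to 0.040 for Ccr2, -0.083 to 0.30 for Fcgr1, -0.040 to 0.58 for Fcgr4 and -0.091 to 0.25 for Apoe. The range ran from -0.089 to 0.41 for Mpeg1. With the sign kept, it ran from 0.14 to 0.77 for Adgre1, 0.22 to 0.90 for Cd14, -0.67 to -0.068 for Cd163, 0.072 to 0.84 for Cd5l, -0.25 to -0.12 for Cx3cr1, 0.088 to 0.53 for Fcgr3, 0.018 to 0.75 for Hmox1, 0.14 to 0.51 for Itgam, 0.38 to 0.79 for Lyz2, 0.12 to 0.23 for Marco, 0.30 to 0.69 for Ms4a7, 0.27 to 0.82 for Nr1h3 and 0.073 to 0.41 for Tyrobp. With array weights the log2 difference was -0.075 for Csf1r, -0.033 for Cd5l, -0.12 for Itgad, -0.15 for Slc40a1, -0.10 for Trf, -0.065 for Axl, -0.22 for Siglec1, -0.082 for Fcgr1 and -0.002 for Apoe, and with the mean of probe sets it was -0.051 for Itgad. WT replicate 1 carried a weight of 4.10. The cause of these changes was not tested.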
